A study of Mus musculus with 768 samples.

Results

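The cells described here are the tip cells of PyMT tumour endothelium, chosen by the levels of 6 genes. They number 28, 31, 30 and 26 in the 4 plates of this endothelium, of 68, 81, 83 and 73 cells that passed the filters, out of 768 sequenced wells in all. Together they make up 37.7% of these filtered cells (exact 95% interval 32.2% to 43.4%). Tip cells are the endothelial cells at the front of a sprouting vessel. They extend filopodia toward growth factors of the VEGF family, carry the Notch ligand Dll4 that holds neighbouring cells back from the same state, open and rebuild the basement membrane, and are replaced at the front as the sprout grows. In tumours, sprouting runs alongside low oxygen, and cells of this state have been described with high glycolysis and with secreted factors such as apelin and endocan.

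Each well held 1 cell sorted by flow cytometry and copied as whole transcripts by Smart-seq2. The tumour cells outside the MECA-79 gate (TU_EC: CD45-negative, CD31-positive, MECA-79-negative, from PyMT tumours, which are mammary tumours of mice) filled 4 plates of 96 wells, named poolA to poolD. MECA-79, an antibody against sulfated glycans of high endothelial venules, marked the other gates, which were tumour cells (TU_HEV) and lymph node cells (LN_HEV). All tumour cells had passed beads that remove CD45-positive and EpCAM-positive cells, so the group holds what those beads and the CD31 gate left. The labels give no strain, genotype beyond the tumour model, treatment, age or animal, so TU_EC was 1 sample without replicates and no test between cells was made. Values of the 4 plates are given for the genes described most fully, and nothing says whether a plate is an animal.

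A tip cell had at least 4 of 6 genes at 10 CPM or more (counts scaled to a total of 1000000 per cell or set of cells): Apln (the ligand apelin), Esm1 (the proteoglycan endocan), Nid2 (nidogen 2 of the basement membrane), Kcne3 (a potassium channel subunit), Pgf (placental growth factor, which binds Flt1) and Trp53i11. The reference was the 70 cells of the same gate and filters with at most 1 of the 6, and 120 cells with 2 or 3 lay between. Cells with 0 to 6 of these genes numbered 41, 29, 52, 68, 72, 32 and 11. At the threshold, 68 cells with 3 genes stayed outside and 72 cells with 4 came inside. The tip share was 41.2% in poolA, 38.3% in poolB, 36.1% in poolC and 35.6% in poolD. The 4 plates therefore held like shares, with intervals that overlap.

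The 6 genes chose the cells, and their values are a description only. Kcne3 reached 10 CPM in 110 tip cells (95.7%), Nid2 in 93.9%, Trp53i11 in 93.04% and Apln in 96 cells (83.5%). Esm1 did so in 58 (50.4%) and Pgf in 35 (30.4%). The most frequent combination was Apln, Nid2, Kcne3 and Trp53i11 without the other two, in 38 cells. A further 21 cells added Esm1, and 11 held all 6. Esm1 and Pgf were thus the least frequent of the 6 among tip cells, as the plot of rule genes by their number shows. Over the tip cells of a plate, Esm1 lay at 242.9, 443, 225.7 and 278.9 CPM (poolA to poolD) and Pgf at 215.8, 52.6, 107.2 and 249.8 CPM. Pgf was lowest in poolB, where Esm1 was highest.

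**Figure D1:**
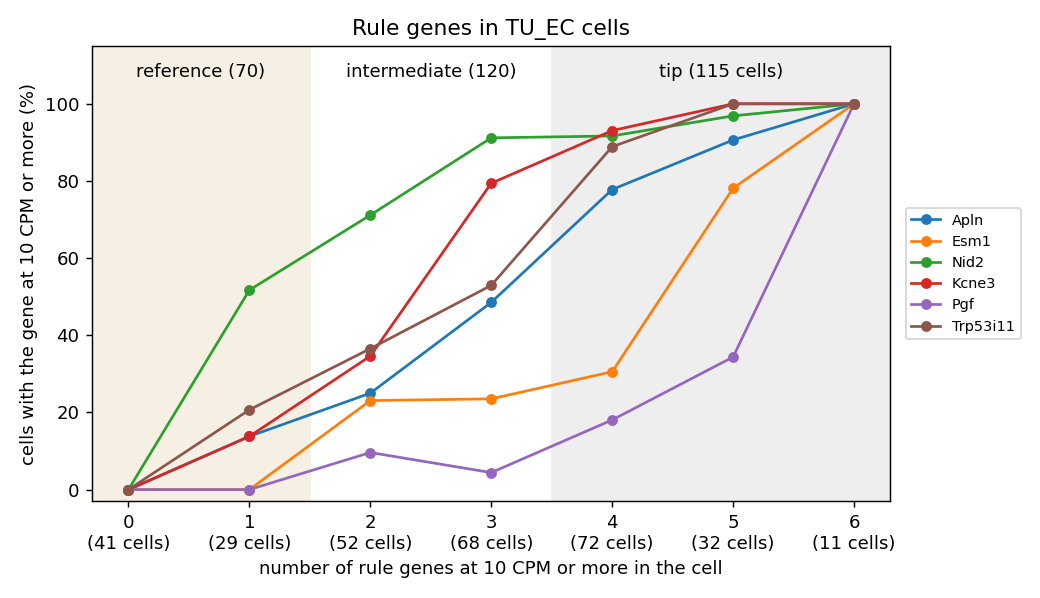
Percent of TU_EC cells in which each of the 6 rule genes reached 10 CPM (vertical axis), by the number of rule genes the cell held (horizontal axis, with the number of cells). Nid2 was already frequent in cells with 2 or 3 genes. With 3 genes it reached 10 CPM in 91.2% of cells, Esm1 in 23.5% and Pgf in 4.41%. Cells with 6 hold every rule gene by definition. The shaded areas mark the reference and tip cells that the rule made.

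The filter on cells asked for 2 of the endothelial genes Pecam1, Cdh5, Tie1, Egfl7 and Eng at 10 CPM, so their presence is no check of the label. They summed to 5820 CPM in tip cells and 6085 CPM in reference cells. Of endothelial genes outside the filter, the tight junction gene Cldn5 reached 10 CPM in 85.2% of tip cells, the VEGF receptor gene Kdr in 89.6% and the sialomucin gene Emcn in 91.3%. All 6 epithelial and tumour markers were at 0 in tip cells. Leukocyte markers summed to 6.61 CPM (3.13 in reference cells) with Ptprc, Cd3e and Cd52 at 0, and myeloid markers to 6.53 CPM (4.09) with Lyz2, Adgre1 and Tyrobp at 0. Mural cell markers summed to 2.22 CPM (35.1) and fibroblast markers to 0.887 CPM (4.42). No tip cell had 3 of 6 markers of any of these types. One tip cell, in poolA, had at least 4 of 6 lymphatic markers.

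Depth differed less than the number of genes. Tip cells held a median of 713110 counts (58737 to 2145384) and 3893 genes, and reference cells 614909 counts and 2866 genes. After thinning each cell to 100000 counts the medians were 3394 and 2595 genes. Ribosomal RNA took a median of 23.5% of counts in tip cells and 24.8% in reference cells, and mitochondrial genes 3.17% and 3.28%. The part of the gene number in the results was not tested.

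The reference was a mixture. Of the 70 reference cells, 26 had at least 4 of 6 venous markers, 10 arterial and 7 lymphatic ones, which left 27 cells of none of these classes. Among tip cells these counts were 1, 2 and 1. The venous markers were Ackr1, Selp, Vwf, Vcam1, Nr2f2 and Lrg1, and the arterial ones Gja4, Gja5, Sox17, Hey1, Fbln5 and Sema3g. The lymphatic ones were Prox1, Lyve1, Pdpn, Mmrn1, Reln and Ccl21a. These genes chose the 27 cells, so their own values against those cells are partly set by that choice. Those 27 cells were shallower (median 469404 counts) and held fewer genes after thinning (1815, against 2881 for the 43 reference cells with a class) and more ribosomal RNA (36.4%). They came from poolA to poolD as 6, 5, 6 and 10 cells, so single plates are thin. Most calls that were lost or gained against these 27 cells are named with the lists described.

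Of 6661 genes at 20 CPM or more in either set, 565 (8.48%) were at least 2-fold higher in tip cells and higher in every plate, and 513 (7.7%) were lower by the same measure. The 6 genes that chose the cells divide the same cells, so nothing is read from these shares. The median log2 ratio over all these genes was -0.001. Without poolA 789 genes were lower. Against the 27 reference cells without a class, 1181 genes (17.8%) were higher and 120 (1.81%) lower of 6638, and the median over all genes was 0.28. Of the 565 and 513 genes, 397 and 70 were found again there. Counts of called list members below stand beside 8.48% higher and 7.7% lower for the whole reference. Against the 27 cells they stand beside 17.8% and 1.81%.

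The genes with the largest ratio in tip cells included receptors, secreted factors and enzymes. F2rl3, which encodes the thrombin receptor PAR4 (chr8:72761880-72763874 of GRCm38), lay at 66.0, 78.9, 59.7 and 64.0 CPM in the tip cells of poolA to poolD. It had no count in the 70 reference cells, so its level was at least 1105-fold higher against a floor of 3 counts over the reference (exact lower limit 898). The plates were close to each other and did not overlap with the reference, yet only 32.2% of tip cells reached 10 CPM. Clca2, of the family of chloride channel accessory proteins (chr3:145070263-145099443), lay at 168.6, 143.99, 127.2 and 84.5 CPM in tip cells and at 0.177, 0, 1.41 and 0 in reference cells. The ratio for Clca2 was 282.9 (exact 95% interval 188.4 to 446), with 49.6% of tip cells and 1.43% of reference cells at 10 CPM. Such intervals cover counting error alone, and they treat PCR copies of a molecule as separate, since Smart-seq2 here carried no identifiers.

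Mest, an imprinted gene for an enzyme of the alpha/beta hydrolase fold (chr6:30723547-30748465), was abundant. It lay at 2354, 2070, 1913 and 1712 CPM in tip cells and at 218.7, 73.1, 33.6 and 98.9 CPM in reference cells (20.0-fold, 19.4 to 20.6), and reached 10 CPM in 87.0% of tip cells and 22.9% of reference cells. Ptn, the heparin-binding growth factor pleiotrophin (chr6:36714929-36810220), lay at 435, 514, 342.7 and 321.6 CPM against 0, 23.8, 4.83 and 26.7 CPM (31.1-fold, 28.8 to 33.7). For both genes every plate of tip cells lay above every plate of reference cells. Ankrd37, an ankyrin repeat protein induced by hypoxia (chr8:45996902-46005707), lay at 54.6, 49.4, 72.1 and 75.4 CPM against 0, 2.32, 0 and 6.78 CPM (28.2-fold, 23.3 to 34.5).

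The other 7 genes named by the same rule were Crmp1, a mediator of semaphorin signalling (68.4-fold), Osbp2, an oxysterol-binding protein (50.8-fold), Wisp1, a matricellular protein of the CCN family (19.9-fold), and Akr1b8, an aldo-keto reductase (18.7-fold). The list ends with Lef1, a transcription factor of the Wnt pathway (17.7-fold), Fam102a (17.6-fold) and Adam19, a membrane metalloprotease (13.3-fold). They reached 10 CPM in 31.3% (Lef1) to 59.1% (Akr1b8) of tip cells. A single reference cell held all the Osbp2 counts of the reference. These folds are against cells with 0 or 1 rule genes and not against the cells between. Fam102a lay at 70.5, 96.3 and 89.3 CPM in cells with 2, 3 and 4 rule genes, and Crmp1 at 56.6, 55.7 and 69.7 CPM. Akr1b8 and Adam19 were lower with 3 (74.7 and 47.8 CPM) than with 4 (91.7 and 66.7 CPM). All 12 genes met the same naming rule against the 27 reference cells without a class. The rule asked for 50 CPM, 10 CPM in 30% of the cells and a 2-fold ratio in every plate.

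**Figure D2:**
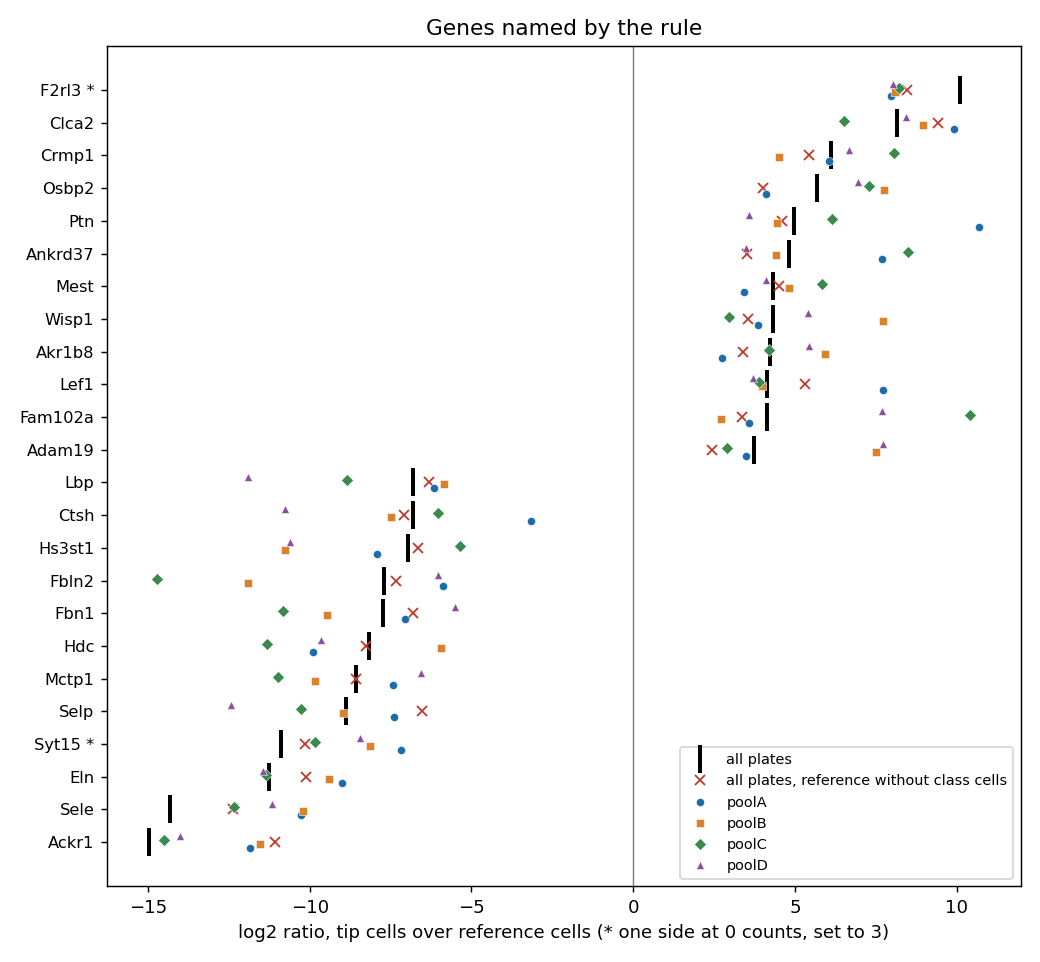
Log2 ratio of tip over reference cells (horizontal axis) for the 12 genes named in each direction, over all plates (bars), in each plate (symbols) and against the 27 reference cells without a venous, arterial or lymphatic class (crosses). Sides at 0 counts, also within a plate, were set to 3 counts, which pulls the plate values of F2rl3 below its value over all plates; every symbol of a gene lies on the same side of 0.

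Genes known from sprouting that took no part in the choice of cells were mostly higher. Of 12 such genes, 9 were called higher and none lower, with a median log2 ratio of 1.95 (1.51 to 1.95 in single plates) beside -0.001 for all genes. Angpt2, the ligand that opposes Tie2 activation by angiopoietin 1, lay at 707, 928, 802 and 1107 CPM in tip cells and at 44.5, 327.2, 236.8 and 19.6 CPM in reference cells (5.62-fold, 5.49 to 5.75). Dll4, the Notch ligand, lay at 628, 666, 413 and 368.8 CPM against 103.3, 43.3, 126.2 and 125.4 CPM (5.15-fold, 5.00 to 5.30). For both, the plates of the 2 sets did not overlap, although the reference plates of Angpt2 were themselves far apart. Dll4 reached 10 CPM in 87.0% of tip cells and 31.4% of reference cells, and Angpt2 in 71.3% and 20.0%.

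Ramp3, a partner protein of the adrenomedullin receptor, lay at 371.6, 370.96, 328.5 and 301.8 CPM in tip cells against 48.4, 36.5, 31.0 and 1.22 CPM (12.0-fold, 11.4 to 12.7). Its ligand adrenomedullin, Adm, lay at 121.7 CPM in tip cells and 30.2 CPM in reference cells (4.03-fold, 3.82 to 4.26). Ligand and receptor partner were both higher in every plate. The chemokine receptor Cxcr4 was 7.09-fold higher (6.26 to 8.05). The actin-bundling protein Fscn1 of filopodia was 4.58-fold, the adhesion protein Mcam 3.69-fold, the pericyte-recruiting ligand Pdgfb 3.04-fold and Lxn 2.04-fold higher. Unc5b (1.96-fold), Plaur (1.62-fold) and Cd34 (1.49-fold) were below the 2-fold limit. Pdgfb (1.60-fold, lower in poolA) and Lxn (1.66-fold) were not called against the reference cells without a class, whereas Cd34 was (3.05-fold).

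Receptors of the same pathways did not share 1 direction. The VEGF receptor Flt1, which Pgf binds, lay at 1430 CPM in tip cells and 424 CPM in reference cells (3.37-fold, 3.32 to 3.42). Its co-receptor Nrp1 was 3.04-fold higher (2.97 to 3.12), while Kdr, the main signalling receptor for VEGF-A, was 1.66-fold higher and not called. Tek, the Tie2 receptor, was 2.41-fold lower (2.34 to 2.48), with 55.9, 127.98, 49.5 and 110 CPM in tip cells and 157.1, 143.96, 369.5 and 120 CPM in reference cells. The plates of Tek overlapped between the sets, since tip cells of poolB exceeded the reference of poolD. Over the 8 receptors of this list, 2 were called higher and 1 lower, and the median of -0.21 ran from -0.43 to 0.78 in single plates. Aplnr, the receptor for the rule gene Apln, was 1.37-fold lower and not called. In the Notch list 1 of 10 measured genes was called higher (Notch4, 2.70-fold) and 1 lower (the ligand Jag1, 2.53-fold). Over all genes the shares called were 8.48% and 7.7%. The median of the Notch list was -0.02, so no direction is read from it. Neither Tek (1.87-fold lower, with 2 plates each way) nor Notch4 (1.48-fold higher, lower in poolD) was called against the reference cells without a class. Jag1 changed direction there, at 27.9 CPM in tip cells and 24.9 CPM in those reference cells. Hey1, a Notch target, was called higher there alone (6.51-fold). It is also an arterial class marker that helped to take cells out of that reference, so nothing is read from this call.

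The basement membrane genes, which build the sheet that a sprout crosses and lays down, were higher as a list. Of 12, 7 were called higher and none lower, with a median of 1.35 (1.03 to 2.07 in plates). Col4a1, a chain of collagen IV, lay at 3750, 4324, 4110 and 3043 CPM in tip cells and at 1796, 881, 1107 and 1195 CPM in reference cells (3.11-fold, 3.08 to 3.14). Every tip cell had it at 10 CPM, as did 92.9% of reference cells, so the plates differed in level more than in the share of cells. Its partner Col4a2 was 2.93-fold higher, the laminin chains Lamc1 4.02-fold, Lama4 3.99-fold and Lamb1 3.82-fold, the linker nidogen Nid1 3.59-fold and the collagen-binding protein Sparc 2.23-fold. Fibronectin, Fn1, was level (618 and 607 CPM). Of 9 measured genes for collagen processing, the chaperone Serpinh1 (4.42-fold) and the lysyl hydroxylase Plod1 (3.28-fold) were called higher. All 9 of these calls in the basement membrane and collagen processing lists held against the reference cells without a class, where P4ha1 and Crtap were called as well.

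Of 9 measured integrins, 4 were called higher and none lower (median 0.97). These were Itgb3 (5.50-fold, 5.15 to 5.87) and Itgav (5.07-fold), which pair as the vitronectin receptor, and the alpha chains Itga2 (5.21-fold) and Itga3 (2.62-fold). Proteases divided. Plau, the urokinase plasminogen activator (7.45-fold), Plat, the tissue plasminogen activator (3.15-fold), and Mmp14, a membrane-bound collagenase (2.23-fold), were higher. The gelatinase Mmp2 (192.7-fold) and its inhibitor Timp2 (102.9-fold) were lower. Mmp2 lay at 0, 4.39, 0 and 0 CPM in tip cells, all from a single cell, and at 72.2 to 355.9 CPM in the reference plates. With the class cells left out of the reference, Itga3 (1.69-fold), Itgav (2.62-fold), Plat (4.01-fold) and Mmp14 (2.02-fold) were still higher but not called, the last 3 being lower in 1 plate. Itgb1 and Timp3 were called higher there alone.

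Among guidance receptors and ligands, named for their part in steering axons and sprouts, 4 of 10 were called higher and 2 lower (median 0.80). Robo1, a receptor for Slit ligands, lay at 81.8, 63.2, 64.9 and 75.0 CPM against 0.794, 0.868, 0 and 23.6 CPM (11.2-fold, 10.0 to 12.7). A single cell held 91.9% of the reference counts of Robo1. Sema6d was 4.31-fold higher, Sema3f 2.38-fold and the semaphorin receptor Plxna2 2.03-fold. The arterial ligand Sema3g (11.4-fold) and the venous receptor Ephb4 (2.65-fold) were lower. Of these 6 calls only that of Robo1 held against the reference cells without a class (43.8-fold), and the list's median was 0.36. Sema6d was then 2.69-fold, Sema3f 1.29-fold and Plxna2 1.28-fold higher. Sema3g (1.84-fold) and Ephb4 (1.90-fold) were then lower over all plates but higher in 2 of them. Sema3g is an arterial class marker, so its lost call is partly set by the choice of cells. Of 12 cytoskeleton genes, Marcksl1, Tubb6 and Cnn2 were called higher (2.22- to 2.93-fold) and none lower. Tubb6 was not called against the reference cells without a class (1.65-fold), and Actb was.

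Glycolysis genes were higher together. Of 13 measured, 9 were called higher and none lower, with a median of 1.23 (0.95 to 1.36 in plates). Slc2a1, the glucose transporter GLUT1, lay at 501, 170, 179.2 and 222.4 CPM in tip cells and at 99.6, 76.7, 75.2 and 91.3 CPM in reference cells (3.10-fold, 3.00 to 3.21). No plates overlapped, but poolA stood above the other tip plates. Slc16a3, the lactate exporter MCT4, was 8.19-fold higher (7.54 to 8.92) and again highest in poolA, at 196.1 CPM against 57.9 to 88.2 CPM in the other plates. Pkm, the pyruvate kinase of the last step, was 3.32-fold higher and reached 10 CPM in every tip cell. Pfkfb3, which makes the activator of phosphofructokinase, was 3.32-fold higher with 33.2% of its tip counts in a single cell. Pfkp lost its call and Aldoa gained one against the reference cells without a class. None of 12 nuclear genes of the respiratory chain was called in either direction against the whole reference (median 0.07). Against the reference cells without a class, 3 were called higher and the median was 0.87, where that of all genes was 0.28.

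Hypoxia targets overlap with that pathway in their regulation by the factor HIF. Of 11 measured, 5 were called higher (Egln3, Ankrd37, Ero1l, Higd1a, Kdm3a) and 1 lower (Ndrg1), with a median of 1.17. Egln3, the oxygen-sensing prolyl hydroxylase PHD3, lay at 84.6, 17.3, 28.1 and 64.0 CPM in tip cells and at 1.24, 0, 0 and 0 CPM in reference cells (161.7-fold, 96.3 to 296.1). It reached 10 CPM in only 20.0% of tip cells, and a single cell held 32.9% of the counts. Ndrg1, a stress-response gene, lay at 184.5 CPM in tip cells and 383.6 CPM in reference cells (2.08-fold lower). Against the 27 reference cells without a class, 6 of 10 hypoxia targets were called higher (Egln1 in addition), none was lower, and the median was 3.13. Ndrg1 was then 1.14-fold lower and not called.

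The promoters of these genes were read because HIF binds the core ACGTG, and the hypoxia and glycolysis lists both had medians above 0. Searched on both strands in windows from 250 bases before to 50 after each RefSeq gene start (GRCm38.p6), the core was in 56.3% of 16 windows of 10 matched hypoxia targets and in 59.1% of 22 windows of 14 glycolysis genes. It was in 19.6% of all 32851 windows, in 1 of 10 windows of the sprouting genes outside the rule, in 0 of 10 of the basement membrane list and in 1 of 7 of the rule genes. For the genes named by their ratio, it was in 28.6% of 21 windows of 11 matched higher genes. It was in 11.1% of 9 windows of 9 matched lower genes. The hypoxia and glycolysis lists are known for regulation by HIF, so their shares describe the lists and not the state of these cells. A match describes the letters and is not a binding site. Ankrd37, with 2 matches, Egln3 and Slc2a1 are shown for the hypoxia and glycolysis results, and Kcne3 as the rule gene with a match. Capitals mark ACGTG on the printed strand or its reverse complement CACGT. The windows are chr8:45999801-46000100 (minus strand), chr12:54203825-54204124 (minus), chr4:119108495-119108794 (plus) and chr7:100176420-100176719 (plus), in this order.
Ankrd37: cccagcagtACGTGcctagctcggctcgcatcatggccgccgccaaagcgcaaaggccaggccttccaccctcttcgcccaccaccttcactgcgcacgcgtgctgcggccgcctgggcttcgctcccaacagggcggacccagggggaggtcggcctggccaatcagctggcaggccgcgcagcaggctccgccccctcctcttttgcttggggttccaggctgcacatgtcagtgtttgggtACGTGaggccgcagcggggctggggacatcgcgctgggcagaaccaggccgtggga
Egln3: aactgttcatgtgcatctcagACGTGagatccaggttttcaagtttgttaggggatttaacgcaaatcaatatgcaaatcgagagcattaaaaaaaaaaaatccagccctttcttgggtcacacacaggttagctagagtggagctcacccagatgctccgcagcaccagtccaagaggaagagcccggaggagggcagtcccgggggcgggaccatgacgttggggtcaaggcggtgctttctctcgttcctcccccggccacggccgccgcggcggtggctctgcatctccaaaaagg
Slc2a1: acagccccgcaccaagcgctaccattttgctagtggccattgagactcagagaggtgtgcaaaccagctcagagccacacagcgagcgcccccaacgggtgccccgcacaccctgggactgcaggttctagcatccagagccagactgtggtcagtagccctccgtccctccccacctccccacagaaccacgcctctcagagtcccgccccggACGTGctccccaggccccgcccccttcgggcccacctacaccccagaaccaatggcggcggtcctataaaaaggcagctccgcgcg
Kcne3: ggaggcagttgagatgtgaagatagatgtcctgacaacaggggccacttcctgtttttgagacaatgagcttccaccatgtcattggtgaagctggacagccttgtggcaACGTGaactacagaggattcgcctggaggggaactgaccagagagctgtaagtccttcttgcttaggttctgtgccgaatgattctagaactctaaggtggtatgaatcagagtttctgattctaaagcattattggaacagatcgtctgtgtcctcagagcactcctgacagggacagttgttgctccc

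Capillary genes were divided in tip cells. Gpihbp1, which carries lipoprotein lipase to the capillary lumen, lay at 1404, 1677, 1859 and 1394 CPM in tip cells and at 187.8, 167.7, 125.4 and 288.5 CPM in reference cells (8.41-fold, 8.23 to 8.59), with 97.4% and 32.9% of cells at 10 CPM. Rgcc (6.11-fold) and Btnl9 (2.84-fold) were higher as well. The fatty acid carrier genes Cd36 (6.88-fold) and Fabp4 (2.92-fold) were lower. With the class cells left out of the reference, Btnl9 (1.64-fold higher), Cd36 (4.27-fold lower) and Fabp4 (2.66-fold lower) each turned in 1 plate and were not called, and Fabp5 was called lower. Of the tip cells, 23 (20.0%) had at least 4 of 6 capillary class markers, compared with 12.9% of reference cells, and their exact intervals overlap (13.1% to 28.5% and 6.05% to 23.0%). Over poolA to poolD these were 2, 12, 7 and 2 tip cells. Without poolB the shares were 13.1% of tip cells and 14.04% of reference cells.

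Venous and leukocyte adhesion genes were lower than in the whole reference. All 10 were called lower, with a median of -4.05 (-6.17 to -3.72 in plates). Selp, P-selectin, which captures rolling leukocytes (chr1:164115264-164150026), lay at 5.71, 1.96, 1.11 and 0 CPM in tip cells and at 961, 986, 1379 and 826 CPM in reference cells (471-fold, 412 to 542). Ackr1, the chemokine-binding receptor of venules (chr1:173331886-173333750), had 2 counts in all tip cells against 682 CPM in reference cells, a ratio of 32268 with an interval of 8932 to 266459. Sele, E-selectin (chr1:164048234-164057677), had 1 count against 216.2 CPM (20468-fold, 3673 to 808505). For all 3 genes the tip plates were near 0 and the reference plates all well above them. Lrg1, a glycoprotein of venous endothelium, was 29.3-fold lower (59.6 against 1748 CPM), and von Willebrand factor, Vwf, 5.07-fold.

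The other genes with the largest ratio in this direction belong partly to elastic fibres and vessel wall matrix. Fbln2, fibulin 2 (chr6:91212455-91272540), lay at 10.3, 0.392, 0.0428 and 9.53 CPM in tip cells and at 604, 1504, 1153 and 630 CPM in reference cells (207.98-fold, 189.4 to 228.9). It reached 10 CPM in 3.48% of tip cells and 67.1% of reference cells. Elastin, Eln, had 7 counts in tip cells against 181.98 CPM (2461-fold), and fibrillin 1, Fbn1, was 210.9-fold lower. Syt15, of the synaptotagmin family, had no count in tip cells and lay at 59.5 CPM in reference cells (at least 1877-fold lower). Mctp1, a membrane protein with calcium-binding C2 domains (378.7-fold), the histamine-producing enzyme Hdc (285.99-fold), the heparan sulfate sulfotransferase Hs3st1 (124.5-fold), the protease Ctsh (112.1-fold) and the endotoxin-binding protein Lbp (111.5-fold) complete the named genes. For Mctp1, Hdc and Hs3st1, a single cell held over 90% of the few tip counts (92.8% for Hdc, 94.4% for Mctp1 and 96.2% for Hs3st1).

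Part of these lower calls depended on which cells were in the reference. Against its 27 cells without a class, 8 of the 12 named genes were still called lower, among them Fbln2 (4.66 against 753 CPM, 161.7-fold), Mctp1 (380.3-fold), Hdc (305.05-fold), Ctsh (135.99-fold) and Fbn1 (113.1-fold). Eln (1108-fold), Hs3st1 (99.6-fold) and Lbp (79.0-fold) were the others. All of them but Fbln2 missed the naming rule because under 30% of those cells reached 10 CPM. Ackr1, Sele, Syt15 and Selp were not called. Ackr1 and Selp are venous class markers, so the loss of their calls is partly set by how those cells were chosen. Selp was then 92.5-fold lower (208.1 CPM in those reference cells), and in poolB it was higher in tip cells by 1.84 on the log2 scale. Ackr1 lay at 45.6 CPM, Sele at 56.0 CPM and Syt15 at 35.96 CPM in those cells, with no count on either side in at least 1 plate. In the venous list 2 of 8 measured genes were then called lower, with a median of -2.47. Arterial genes, of which 6 of 10 were called lower against the whole reference (the connexins Gja4 and Gja5, Fbln5, Bmx, Stmn2 and Mgp, median -3.44), had 1 called lower there, with a median of -2.40. Class markers are members of the venous and arterial lists, so the lost calls of these lists are partly set by the choice of cells. The medians there were 1.92 for the sprouting genes (8 called higher), 1.27 for the basement membrane (7) and 1.48 for glycolysis (9), lists without class markers. Over all genes there the median was 0.28, with 17.8% called higher and 1.81% lower. No test compared these lists.

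**Figure D3:**
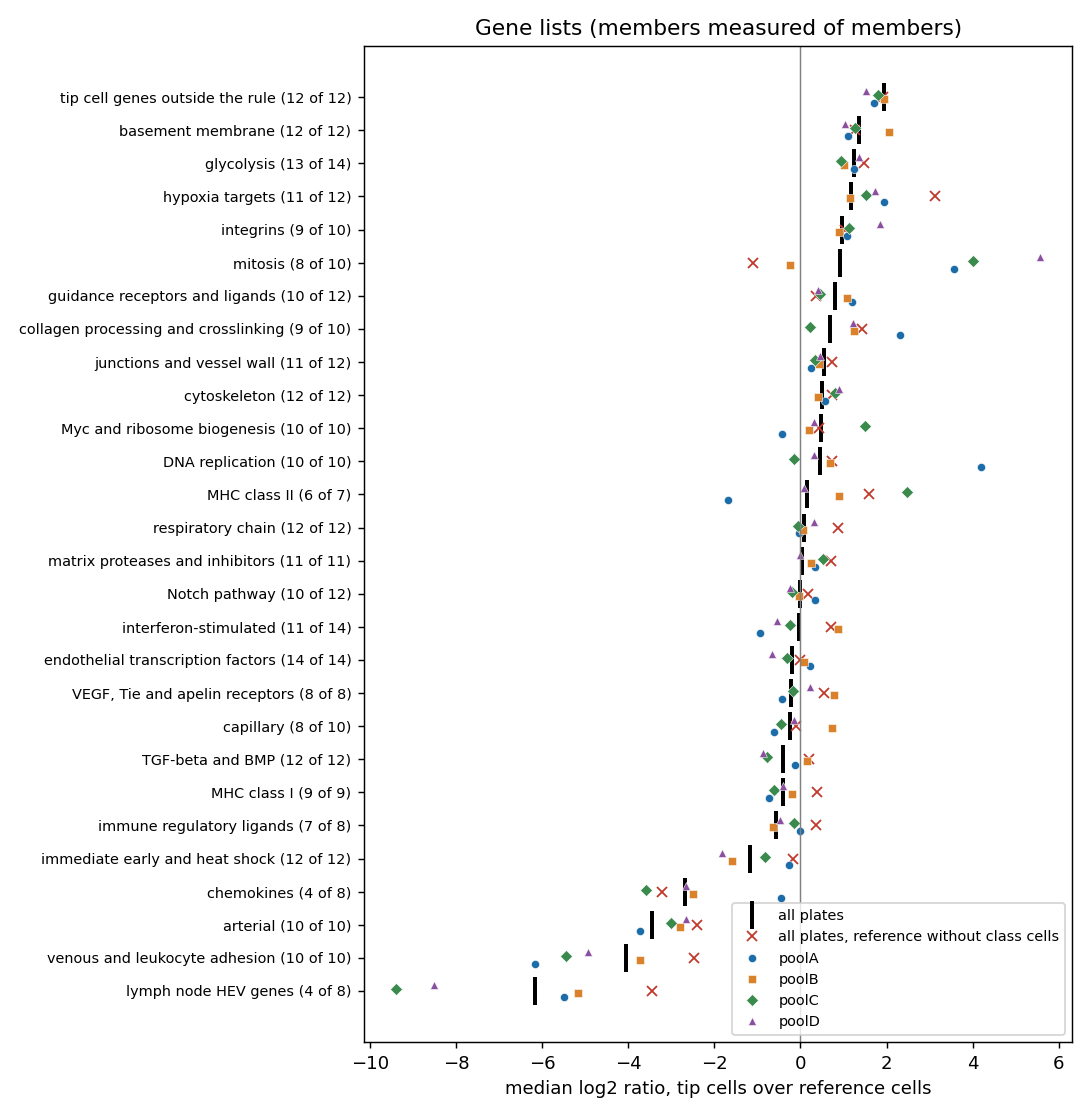
Median log2 ratio of tip over reference cells for 28 gene lists (horizontal axis), over all plates (bars), in each plate (symbols) and against the 27 reference cells without a class (crosses); the numbers beside each list are its measured members. Sprouting, basement membrane, glycolysis and hypoxia lists lie above 0 in every plate and the venous and arterial lists below it, while the mitosis list ranges from -0.23 to 5.57 over the plates.

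Several immediate early genes, which respond to stress within minutes and also to tissue digestion, were lower in tip cells. In a list of 12 that also holds the heat shock genes Hspa1a and Hspa1b, 5 were called lower (Fos, Jun, Junb, Ier3, Nr4a1) and none higher, with a median of -1.18. Fos lay at 900, 825, 841 and 658 CPM in tip cells and at 991, 3640, 3031 and 3308 CPM in reference cells. In poolA the sets were close, and in the other plates the reference was well above. Against the reference cells without a class, no gene of this list was called and the median was -0.17. Both sets came from the same plates, and how long a cell had been in digestion was not tested.

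Genes of immune contact showed few calls. No MHC class I gene of 9, no MHC class II gene of 6 and no interferon-stimulated gene of 11 was called against the whole reference (medians -0.41, 0.15 and -0.03). Against the reference cells without a class, 3 MHC class II genes were called higher (Cd74, H2-DMa and H2-DMb1), with a median of 1.60. Over all genes in that comparison 17.8% were called higher and 1.81% lower, and the median was 0.28. There the median of the interferon list was 0.71, and the MHC class I list had Tapbp higher and Nlrc5 lower (median 0.38). Cd276, the checkpoint ligand B7-H3 known from tumour vessels, was 3.02-fold higher in tip cells (292.5 against 96.98 CPM), in 75.7% of tip cells and 27.1% of reference cells. Nt5e, the enzyme CD73 that makes adenosine, was 2.67-fold lower and the death ligand Tnfsf10 6.86-fold lower. Neither was called against the reference cells without a class, where both changed direction (1.75-fold and 1.04-fold higher). The chemokine Cxcl16 was 44.0-fold lower, with 89.6% of its tip counts in a single cell, and was not called against the reference cells without a class, where poolA turned. Among lymph node HEV genes Ccl21a was 237.6-fold lower, with 10.0% of reference cells at 10 CPM and 7 of the 70 carrying lymphatic markers. A single tip cell held 99.1% of its tip counts. The reference cells without a class held no count of Ccl21a, so all its reference counts came from cells with a class. Ccl21a is itself a lymphatic class marker, so its absence there is partly set by the choice of cells.

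Few tip cells carried markers of division. At least 4 of 6 such markers reached 10 CPM in 7 tip cells (6.09%), in 7.50% of the intermediate cells and in 1.43% of reference cells, with overlapping exact intervals (2.48% to 12.1%, 3.49% to 13.8% and 0.0362% to 7.70%). Over poolA to poolD these were 1, 4, 1 and 1 tip cells, and without poolB the tip share was 3.57%. No mitosis gene was called, and Mcm2 and Mcm6 of the replication helicase were called higher. Of these, Mcm6 was also called against the reference cells without a class and Mcm2 was not (lower in poolB), while Pcna was called there alone. Mcm6 lay at 46.7 against 0.389 CPM, with 31.6% of its tip counts in a single cell.

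The rule cuts a graded series, and the genes outside it differed in where along the number of rule genes their level differed most. Over cells with 0 to 6 rule genes, Selp lay at 1338, 735, 270, 1.46, 3.60, 0.0428 and 0 CPM. Thus it was near 0 from 3 rule genes on, 1 below the threshold, and in every plate it was at most 11.6 CPM there. The venous list summed to 7104, 2855, 1402, 344.9, 280.9, 345.6 and 190.5 CPM in the same order. Angpt2 had the other form, with 240.9, 58.6, 236.6, 226.8, 455, 1390 and 1937 CPM. In single plates it was at 240 to 789 CPM in cells with 4 genes and at 850 to 2420 CPM in cells with 5 or 6, so the plates of these sets did not overlap. Depth also differed along this series, from a median of 568853 counts with 0 rule genes to 1019173 with 6, and its part was not tested.

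Mest lay between these forms, at 62.4, 146.7, 496, 1009, 2053, 2324 and 1329 CPM. In cells with 3 genes it lay at 450 to 1811 CPM over the plates, and in cells with 4 at 1876 to 2335 CPM. Dll4 was 23.7 CPM with 0 rule genes and 195.96 with 1, and 412 and 450 CPM just below and above the threshold. Clca2, the chloride channel accessory gene, was 133.3 CPM with 3 genes and 123.5 with 4. Ptn was highest with 4 (543 CPM) and lower with 5 (232.3) and 6 (129.4). Ptn and Angpt2 were therefore highest in different cells of the series. The basement membrane list summed to 5993, 10657, 15776, 17260, 19141, 20127 and 22576 CPM, most of the difference lying below 3 genes. Glycolysis summed to 2333, 3245, 3590, 4174, 5113, 6354 and 10697 CPM. Its median over single cells was 1893, 2811, 2269, 3228, 4503, 3185 and 11412 CPM, so only the sums rose at each step. The hypoxia list summed to 619, 445, 260.1, 349.6, 417.5, 843 and 1508 CPM. Cells with 4 rule genes thus lay below cells with 0 in that sum, and only cells with 5 or 6 lay above them. By the median over single cells, those with 5 (386.5 CPM) also lay below those with 0 (413.2 CPM). Only those with 6 (849.9 CPM) lay above. Slc2a1 was 149.4 CPM with 4 genes, 271.7 with 5 and 792 with 6, where the 11 cells are few.

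**Figure D4:**
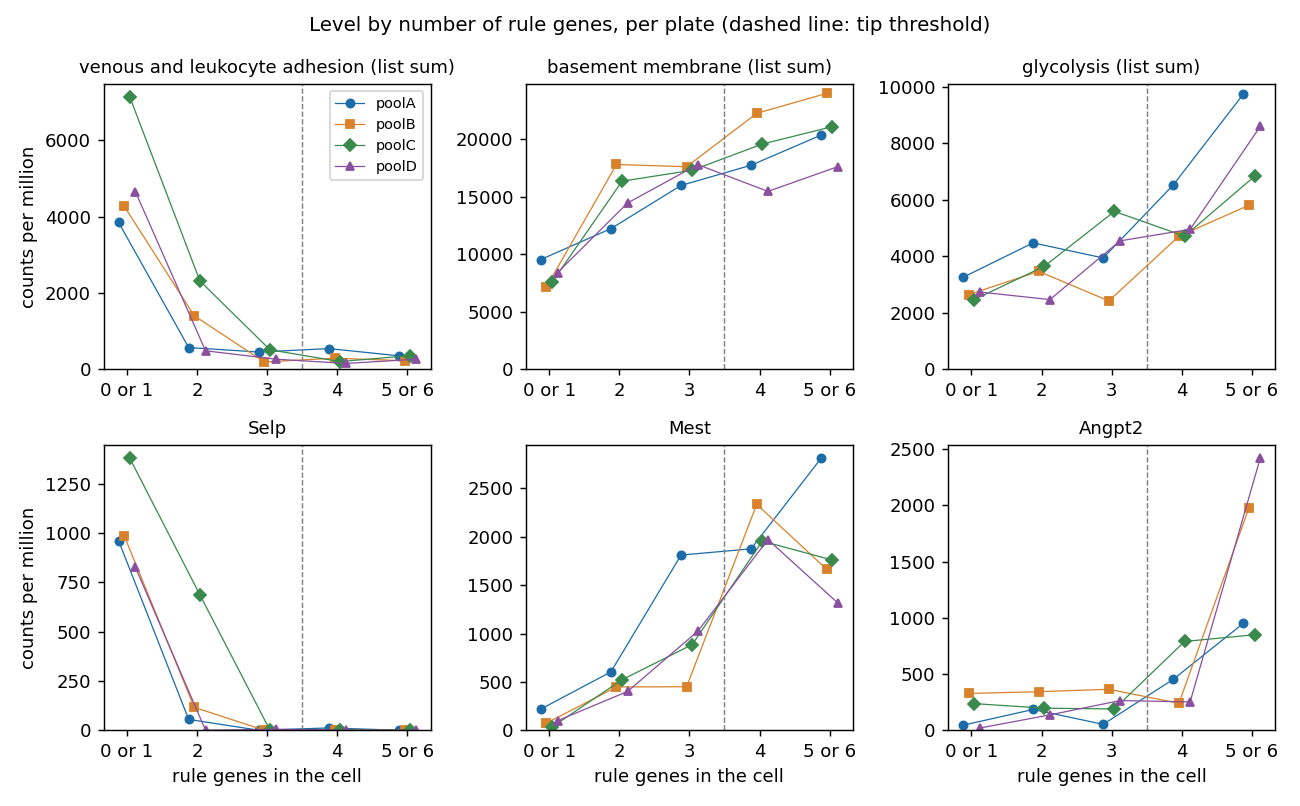
Level in CPM (vertical axis) of 3 summed gene lists and of Selp, Mest and Angpt2 in TU_EC cells by number of rule genes (horizontal axis), 1 line per plate, with the tip threshold dashed. Selp is at most 11.6 CPM from 3 rule genes on in every plate, whereas Angpt2 reaches 850 to 2420 CPM with 5 or 6 rule genes.

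Tip cells also differed among themselves. Pgf, the least frequent rule gene, divided them into 35 cells at 10 CPM or more and 80 below. This division was chosen after the values were seen and uses a rule gene, so it is a description. The 35 cells held fewer genes (median 3340, against 4104.5) at a like depth (710678 and 756848 counts), and the median log2 ratio over 6343 genes was -0.15. Of all these genes 3.12% were higher and 8.28% lower in every plate with Pgf. Hypoxia targets had a median ratio of 1.38, with 5 of 11 higher in all 4 plates, and glycolysis genes 0.97, with 5 of 13. Egln3 lay at 144.1 CPM with Pgf and 5.24 CPM without, in 17 and 6 cells. Ndrg1 lay at 443 and 75.9 CPM, in 29 of 35 and 26 of 80 cells. Adm lay at 260 and 63.6 CPM, in 29 and 22 cells. Slc2a1 lay at 546 and 146.2 CPM. Bnip3, a mitochondrial protein induced by hypoxia, lay at 227.7 and 13.3 CPM, with 36.7% of the first from a single cell.

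Another set of genes was lower in tip cells with Pgf. Ptn lay at 96.8 CPM with Pgf and 544 CPM without, in 8 of 35 and 55 of 80 cells, and its log2 ratio ran from -2.99 to -2.19 over the plates. Ramp3 lay at 125.5 and 439 CPM. Cd300lg, a mucin-like receptor of capillary and venous endothelium, lay at 65.5 and 341.7 CPM (10 and 60 cells). Aplnr, the apelin receptor, lay at 28.9 and 200.8 CPM (4 and 30 cells), and Id1, a target of BMP signalling, at 30.0 and 174.4 CPM. The mitosis genes were mostly in cells without Pgf. Ccnb2, a mitotic cyclin, was at 10 CPM in 1 of 35 and 14 of 80 cells. Clca2 and F2rl3, among the genes that most set tip cells apart from the reference, were alike in both (129.4 and 134.8 CPM, 56.0 and 72.8 CPM).

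**Figure D5:**
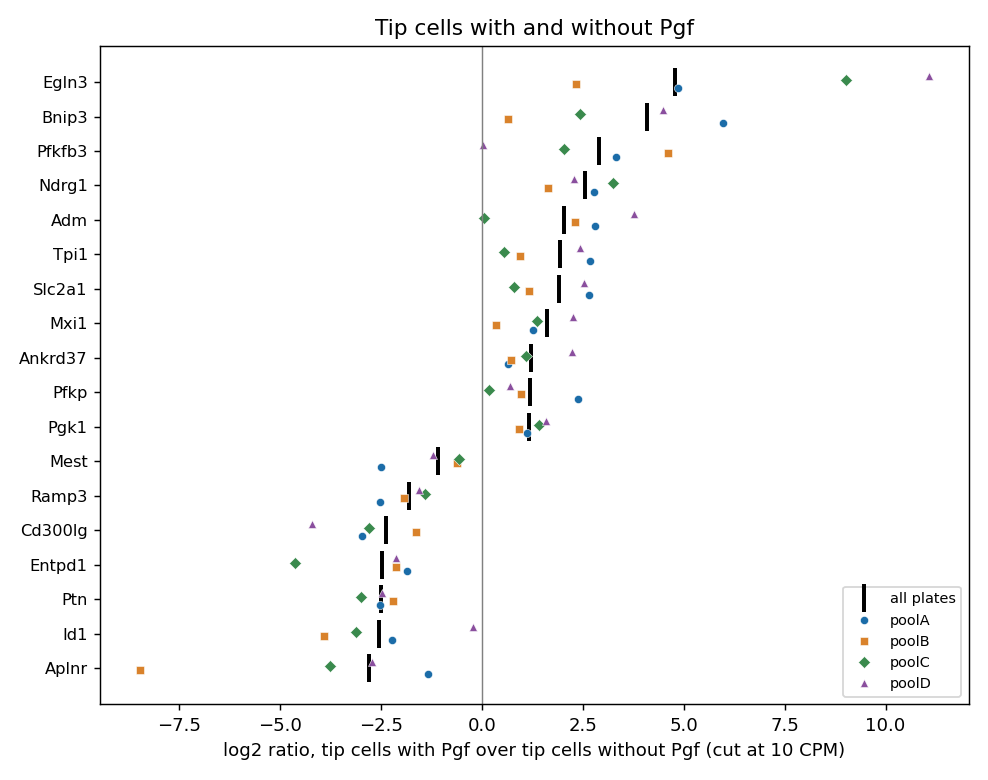
Log2 ratio of tip cells with Pgf at 10 CPM or more (35 cells) over tip cells without (80 cells) for hypoxia and glycolysis genes and for genes lower with Pgf (horizontal axis), over all plates (bars) and in each plate (symbols). Egln3 has the largest ratio over all plates (4.78) and Aplnr the lowest (-2.80); Adm in poolC and Pfkfb3 in poolD lie at about 0.

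Esm1 divided the tip cells almost evenly, into 58 with and 57 without. The divisions by Esm1 and Apln also use rule genes and are descriptions. Through the rule they are tied to each other and to the division by Pgf. Esm1 was at 10 CPM in 22 of 72 tip cells with 4 rule genes, in 25 of 32 with 5 and in all 11 with 6. Cells with Esm1 thus held more rule genes, and Angpt2 was highest in cells with 5 or 6. Angpt2 lay at 1437 CPM with Esm1 and 354.7 CPM without. Cxcl12, the ligand of Cxcr4, lay at 515 and 97.97 CPM. The arterial transcription factors Hey1 and Sox17 had log2 ratios of 1.67 and 1.12, and the venous factor Nr2f2 one of -2.81. Each of these genes kept its direction in all 4 plates, as did 2.56% of all genes higher and 2.79% lower with Esm1. Apln divided the tip cells into 96 and 19. A tip cell without Apln must hold Esm1 or Pgf to meet the rule. Most of the 19 held Nid2, Kcne3 and Trp53i11 with Pgf alone (8 cells) or with Esm1 alone (7 cells). The 96 held more genes (median 4089, against 3340), 10.9% of 6400 genes were higher with Apln in every plate, and 1.61% were lower. Division genes differed as well, with a median of 3.84 for DNA replication (5 of 10 genes higher in every plate) and 5.66 for mitosis (2 of 7). Only 7 tip cells in all had at least 4 of 6 division markers, and the 19 cells without Apln were spread over the plates. A side without counts was given 3 counts, so the size of these medians is not read. Tek (log2 ratio 2.63), Aplnr (1.91), Ptn (3.15) and Itga3 (2.74) were higher with Apln in every plate, and Plat was lower (208.4 against 824 CPM). Tek was at 10 CPM in 35 of the 96 tip cells with Apln and in 4 of the 19 without.

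In the MECA-79-positive tumour gate, 6 of 98 filtered cells met the same rule (6.12%, exact interval 2.28% to 12.9%), with 1 of 50 in pool3 and 5 of 48 in pool4. None of the 76 and 82 filtered lymph node cells of pool1 and pool2 did, which allows a share of up to 1.90% by a floor of 3 cells (exact upper limit 2.31%). The gate cannot be told apart from the set of libraries, since TU_EC came from its own plates. In those 6 cells Selp was at 0.0851 CPM and Fbln2 at 0, whereas the 84 TU_HEV cells with at most 1 rule gene held 3222 and 743 CPM. Mctp1 (79.0 against 499.8 CPM), Syt15 (35.6 against 232.2) and Sele (21.2 against 599.5) were present in 1 or 2 of the 6 cells. The remaining genes named lower were at most at 0.0851 CPM. Of other venous genes, Lrg1 lay at 455.4 against 4665 CPM and Vcam1 at 138.2 against 856.9 CPM. Chst4, which adds the sulfate that MECA-79 binds, was at 0.0851 CPM in the 6 cells and 240 CPM in the 84. Gpihbp1 lay at 1419 and 202.8 CPM, Mcam at 800 and 306.8 CPM and Dll4 at 389 and 77.1 CPM. Mest lay at 693 and 126.99 CPM, but the median of the 6 cells was 56.4 CPM and the highest cell 3470 CPM. It reached 10 CPM in 5 of the 6 cells, as Clca2 did (79.1 and 4.16 CPM). Of the other genes named higher, F2rl3, Crmp1, Ptn, Osbp2, Fam102a and Adam19 reached 10 CPM in 2 of the 6 cells. Akr1b8 did so in 3, and Ankrd37 and Lef1 in 1. Angpt2 was nearer (652 and 499 CPM), and Wisp1 reached 10 CPM in none of the 6.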

How the data were processed

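The authors deposited raw read counts, with 1 column a well and 1 row a gene. The submitters' processing notes name FastQC 0.11.4, STAR 2.4.1b, Subread 1.4.6-p2 and the build mm10 (GRCm38); annotation and strand setting were not given in the sources used here. Repeated symbols among 51826 features were summed to 51734, of which 92.1% were found in GENCODE M21 for positions. Promoters are RefSeq's.

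Cells needed 50000 counts, 1000 genes, at most 30% mitochondrial counts and 2 of 5 pan-endothelial genes at 10 CPM. Wells held 1 sorted cell, and no doublet caller was run. No 2 wells were identical. Counts of the cells in a set were added, scaled to a total of 1000000 (CPM) and compared as ratios with exact 95% intervals; a set at 0 was given 3 counts. A gene was called with 20 CPM in 1 set and a 2-fold ratio that kept its direction in every plate; list medians used genes at 10 CPM. The 12 genes named each way had the largest ratio among those with 50 CPM, 10 CPM in 30% of the cells and a 2-fold ratio in every plate. Thinning to 100000 counts used seed 1. The members and lists were chosen with earlier results of these data known. On simulated counts all 200 changed genes were called. Those counts were Poisson draws from 1 profile, with fixed changes in genes at 50 CPM or more and no other spread between cells. They check the code and not how well the calls work on these cells. Python 3.11.15, numpy 2.4.6, pandas 2.3.3, scipy 1.17.1 and matplotlib 3.10.9 were used.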

Additional observations from a re-analysis of the deposited data

How the results depend on the processing

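Of 20 planned and 3 added alternatives (the added ones chosen after seeing the data), none changed the sign of a list median of at least 1 in size or of a named gene's ratio. The smallest log2 ratio fell under the 2-fold limit for Fam102a (0.65), Lef1 (0.77), Ptn (0.83) and Crmp1 (0.88). For the other genes named higher the smallest ran from 1.22 (Clca2) to 2.22 (Ankrd37). The tip share was 60.0% with 3 of 6 genes required and 14.1% with 5. Genes called higher were 8.48% of those tested, 9.58% with a 50 CPM minimum, 5.56% with none but 3 counts (1010 genes), 17.8% against the reference without venous, arterial and lymphatic class cells (1181) and 2.49% against all other filtered cells. Genes called lower were 7.7%, and under these settings 9.04%, 3.63% (659), 1.81% (120) and 5.29%, with 11.7% without poolA (789), where 1 plate fewer had to agree in direction. The median over all genes was 0.28 against the reference without class cells. The median of the sprouting genes outside the rule was 1.66 with 3 of 6 genes, 2.35 with 5, 2.33 against cells with 0 of 6 and 0.92 against all other cells. The glycolysis median was 1.03, 1.65, 1.48 (no class cells) and 0.82 (all other cells) under the corresponding settings, and that of the basement membrane was 0.58 against all other cells. The venous median was -6.88 with 50 CPM and -2.47 without class cells, which genes of that list helped to choose. A reference of all other cells includes cells with 2 or 3 rule genes; the cause of the other differences was not tested. The VEGF, Tie and apelin median changed sign in 5 and the Notch median in 13 of 22 settings, so neither has a direction here. No paired analysis was possible because the results come from no test; ratios within each plate, which both sets share, are part of the rule for a call. Depth limits genes at few counts: 3 counts over the tip cells are 0.0317 CPM.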
